A study of Mus musculus with 6 samples.

Results

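The neurotrophins and GDNF are secreted growth factors that were followed here together with their receptors in mRNA of the mouse nucleus accumbens core, a region of the ventral striatum. The members were taken by gene symbol from the deposited table, namely the ligand genes Bdnf, Ntf3 and Gdnf and the receptor genes Ntrk2, Ntrk3, Ngfr, Gfra1 and Ret. All 8 were found among the 24532 genes of the table, with 30 of its 36780 transcript rows. Bulk libraries were made from 3 samples titled ethanol and 3 titled control, all from male wild-type mice labelled adolescent at postnatal days 35 to 55. The treatment field reads ethanol exposure for ethanol and control samples alike, and the injection text is the same for both. It describes, after fear conditioning, 6 intraperitoneal injections of 20% v/v ethanol in saline spread over 6 h, at 1.8 g/kg first and 1.2 g/kg for the other 5. Extinction trials and 27 days of every-other-day drinking followed for all, and tissue was collected 24 h later. The titles, with the short sample descriptions and column names that match them, separate the groups. The labels do not say what the control mice were given instead, and no naive group is used. The labels do not tie each sample to its own animal, so the errors below describe the spread between samples, which may be technical.

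Neurotrophins signal through Trk receptor tyrosine kinases, with TrkB (Ntrk2) binding BDNF and TrkC (Ntrk3) binding neurotrophin-3 (Ntf3), and through the shared low-affinity receptor p75NTR (Ngfr). GDNF binds the lipid-anchored co-receptor GFRα1 (Gfra1), which brings it to the receptor tyrosine kinase RET. In the striatum, BDNF protein is known to be delivered largely by axons from the cortex, and GDNF is known mainly from parvalbumin interneurons. TrkB also exists as a truncated receptor without the kinase domain, which is abundant in astrocytes.

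The Trk rows of the table were told apart by the length of the encoded protein, which differs by the end of the coding sequence. The sequences at the branch point are therefore shown. They are from GENCODE M21 (GRCm38, the assembly of mm10), matched by RefSeq accession, with 30 shared coding bases in lower case and the bases after the branch in capitals. In Ntrk2, on the plus strand of chromosome 13, variant 2 leaves the shared frame at codon 465 and stops after 38 bases of its own, from 58932023 to 58932060, giving 476 amino acids. Variant 1 continues into a different exon from 58985802, of which 90 bases are shown, and gives 821 amino acids, as does variant 3.
Ntrk2 variant 2 (truncated TrkB): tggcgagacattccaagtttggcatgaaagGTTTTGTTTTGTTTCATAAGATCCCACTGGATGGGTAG
Ntrk2 variant 1 (TrkB with kinase domain): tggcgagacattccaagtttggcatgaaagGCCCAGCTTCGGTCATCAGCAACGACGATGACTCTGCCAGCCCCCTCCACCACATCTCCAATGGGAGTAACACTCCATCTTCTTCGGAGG
In Ntrk3, on the minus strand of chromosome 7, variant 2 branches at codon 529, has 254 own coding bases from 78304426 down to 78302629, with an intron between, and ends after 612 amino acids. Variant 1 continues from 78260414 downwards, with 90 bases shown, and gives 825 amino acids.
Ntrk3 variant 2 (truncated TrkC): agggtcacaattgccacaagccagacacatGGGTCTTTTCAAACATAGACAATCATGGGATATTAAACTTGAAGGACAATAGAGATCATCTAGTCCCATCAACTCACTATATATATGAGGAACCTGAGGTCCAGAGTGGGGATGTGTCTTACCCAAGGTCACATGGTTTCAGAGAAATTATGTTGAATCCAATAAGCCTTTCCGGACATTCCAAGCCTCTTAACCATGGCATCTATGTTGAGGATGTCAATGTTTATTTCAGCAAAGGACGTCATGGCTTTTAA
Ntrk3 variant 1 (TrkC with kinase domain): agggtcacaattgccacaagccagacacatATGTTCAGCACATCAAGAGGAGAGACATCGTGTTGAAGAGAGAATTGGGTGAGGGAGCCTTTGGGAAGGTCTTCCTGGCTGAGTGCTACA

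Bdnf is the member with most rows, because its first exons have separate promoters and are mostly spliced to a last exon that holds the coding sequence. The 12 rows begin at 9 positions of chromosome 2, which are called by their order the exons I to VIII and IXa, the usual names in the mouse. For the 9 rows whose GENCODE transcript starts at the same base, the last exon of 3626 bases makes up 85.0% to 97.8% of the transcript, so few reads tell them apart. The exon IXa row, 4123 bases long, is as long as its genomic span and so has no intron. RefSeq windows (GRCm38.p6) of the 250 bases before the start were matched for 7 of the 9 starts. The windows of exons I and IV are shown, since reads were assigned to exon I in all 6 libraries and exon IV is known for its activity-dependent promoter. Capitals mark TGACG on either strand, the shorter core of the cAMP response element TGACGTCA, within which it also matches. It was found 1 time in the exon IV window, as CGTCA from 35 bases before the start, and in none of the other 6 windows. Of 32851 such windows of the genome, 17.8% hold it, and 1.55% hold TGACGTCA, which no Bdnf window holds. A match describes the letters only.
Bdnf exon I, chr2:109674450-109674699, plus strand: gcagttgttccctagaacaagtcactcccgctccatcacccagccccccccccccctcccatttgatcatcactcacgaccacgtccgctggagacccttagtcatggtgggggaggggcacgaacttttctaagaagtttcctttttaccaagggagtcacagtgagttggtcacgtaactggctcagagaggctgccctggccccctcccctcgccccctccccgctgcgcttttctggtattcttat
Bdnf exon IV, chr2:109692186-109692435, plus strand: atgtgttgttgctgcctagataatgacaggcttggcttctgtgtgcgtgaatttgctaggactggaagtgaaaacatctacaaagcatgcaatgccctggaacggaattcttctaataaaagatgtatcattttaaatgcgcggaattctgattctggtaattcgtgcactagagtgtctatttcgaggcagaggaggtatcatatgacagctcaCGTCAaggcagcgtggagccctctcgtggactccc

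The libraries held 67399599, 42995011 and 36197592 estimated reads in ethanol 1, 2 and 3, against 55672232, 37215903 and 35898026 in control 1, 2 and 3. Control 2 had reads on 15924 genes, against 17096 to 17707 in each of the other 5 libraries, and it lay apart on the first principal component, with 75.9 against -34.3 to -0.42. Genes known from medium spiny neurons, the main striatal cell type, were present in each library, with Ppp1r1b at 486 to 1156 CPM in ethanol and 513 to 598 CPM in control. The fit kept 15774 genes, all 8 members among them. CPM are read counts scaled to library size with TMM factors. In edgeR's quasi-likelihood test 0% of the genes passed an adjusted p of 0.05, none having one below 0.41. An unadjusted p under 0.05 was met by 10.7% of the genes, 5.31% being higher and 5.34% lower in ethanol, and DESeq2 called 1.01% at an adjusted p of 0.05.

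Per length, TrkB was by far the most abundant member and the ligands the least. In deposited FPKM summed over rows, Ntrk2 stood at 65.6 ± 14.1 in ethanol and 48.7 ± 4.85 in control (SD, n = 3 each). Gfra1 followed with 14.6 ± 2.01 and 11.9 ± 1.27 FPKM in ethanol and control, and Ntrk3 had 10.1 ± 2.72 and 11.99 ± 1.83. Ret stood at 7.42 ± 3.85 FPKM in ethanol and 7.56 ± 1.25 in control, and Ngfr at 5.48 ± 1.59 and 4.61 ± 2.34. Among the ligands Bdnf reached 1.21 ± 0.41 FPKM in ethanol and 1.81 ± 0.65 in control, while Ntf3 had 0.51 ± 0.25 and 0.43 ± 0.31 and Gdnf 0.46 ± 0.09 and 0.36 ± 0.04. In both groups the ranges of Ntf3 and Gdnf overlapped, as did those of Ret and its neighbour Ngfr, so these pairs have no firm order. Ntrk3 and Gfra1 overlapped in control, Ntrk3 and Ret in ethanol, and Ngfr and Bdnf in control. Ntrk2 lay above every other member in all 6 libraries.

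**Figure D1:**
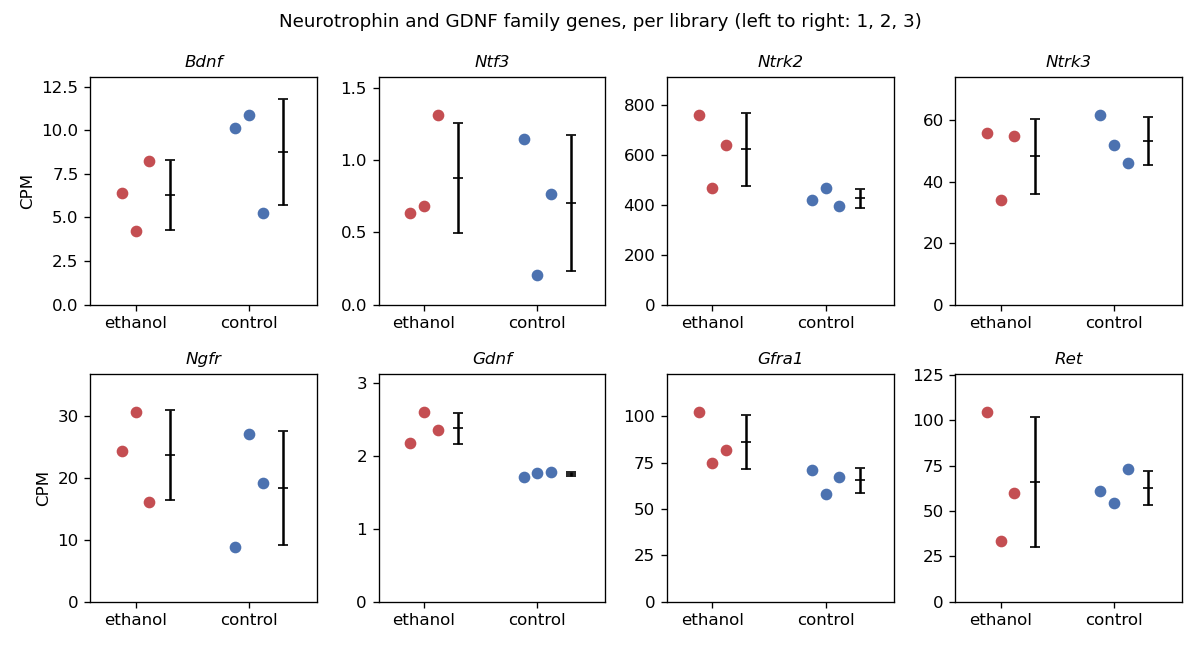
Level of each member in CPM (y axis, starting at 0) in the ethanol libraries (red) and the control libraries (blue), with points for libraries 1, 2 and 3 from left to right and black bars for the mean ± SD of a group. Gdnf and Gfra1 are the members whose 3 ethanol points all lie above their 3 control points.

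None of the 8 members passed the test over all genes, which is the background share of 0%. Of the 8, 6 had a higher fitted level in ethanol and 2 a lower one, while 52.7% of all genes tested were higher. The median of the 8 was 0.33 on the log2 scale, against 0.02 over all genes tested. An unadjusted p under 0.05 was met by 1 member, Ntrk2, and 10.7% of all genes met it. The groups did not overlap in 2 of the 8 members, and in 17.8% of all genes, counting either direction. The 2 were Gdnf and Gfra1, both with ethanol above, as was the case for 9.35% of all genes. The fitted differences ran between -0.48 for Bdnf and 0.55 for Ntrk2, with adjusted p-values of 0.44 to 0.96 by edgeR. Without control 2, the library that lay apart, the differences were -0.29 for Bdnf, -0.14 for Ntf3, 0.45 for Gdnf, 0.62 for Ntrk2, -0.16 for Ntrk3, 0.77 for Ngfr, 0.32 for Gfra1 and -0.020 for Ret. The sign of Ntf3 and Ret thus turned and the size of Bdnf and Ngfr moved most among the others.

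**Figure D2:**
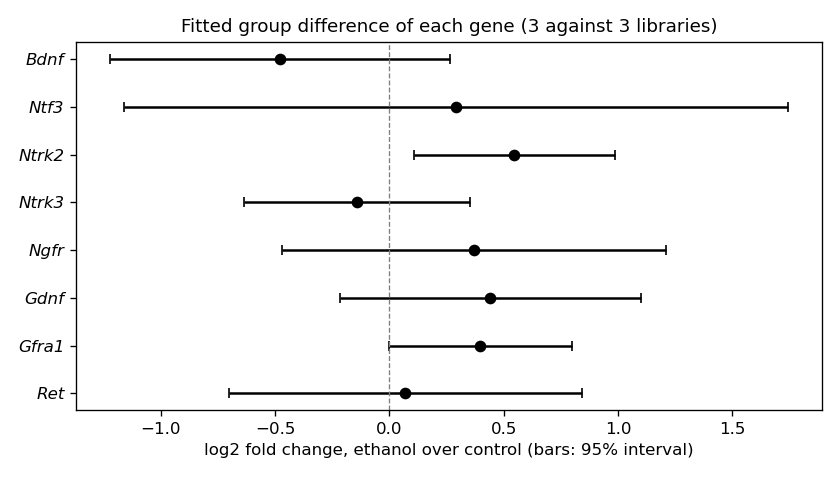
Log2 fold change of each member, ethanol over control (x axis), from the edgeR fit over 3 ethanol and 3 control libraries. Points are estimates and bars 95% intervals, and only the interval of Ntrk2, from 0.11 to 0.99, leaves out 0, before adjustment for the number of genes.

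Bdnf (mm10, chr2:109674700-109727043), the ligand of TrkB, stood at 6.42, 4.24 and 8.21 CPM in ethanol 1, 2 and 3, against 10.1, 10.9 and 5.28 CPM in control 1, 2 and 3. Control 1 and control 2 were highest and ethanol 2 lowest, and the groups overlapped through control 3. The log2 fold change was -0.48 (SE 0.33, 95% interval -1.22 to 0.26, adjusted p = 0.61 by edgeR's quasi-likelihood test), which changed to -0.74 without control 3, to -0.28 without ethanol 2 and to -0.29 without control 2. These levels rest on 174 to 403 reads in ethanol and 193 to 584 reads in control.

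Slc17a7, the vesicular glutamate transporter of cortical excitatory neurons, stood at 24.7, 9.42 and 56.0 CPM in the ethanol libraries, against 289, 58.2 and 102 CPM in the control libraries. All ethanol libraries lay below all controls, as in 8.41% of all genes, by a narrow step between ethanol 3 and control 2. Bdnf was likewise lowest in ethanol 2, though its level in control 2 was as high as in control 1. The whole list of 10 cortical markers summed to 436 to 652 CPM in ethanol and 487 to 706 CPM in control, with 2 of the 10 higher on average in ethanol. Nrgn, which medium spiny neurons also express, held 304 to 602 CPM of it in ethanol and 313 to 390 CPM in control. Of the defining markers Emx1 was at 0.064 to 0.35 CPM in ethanol and 0 to 2.59 CPM in control, the 0 being in control 2. The part of cortical RNA in the Bdnf values was not tested. In bulk tissue, fewer cells of a type and less RNA per cell cannot be told apart.

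The assignment of Bdnf reads to first exons differed widely between single libraries. Exon II rows (variants 2, 5 and 7) held 50.4%, 42.5% and 32.0% of Bdnf reads in ethanol 1, 2 and 3, and 46.1%, 1.44% and 89.1% in control 1, 2 and 3. The control libraries thus spanned almost the whole scale. Exon VI (variant 4) held 16.1%, 28.7% and 26.1% in ethanol and 14.9%, 37.6% and 1.55% in control. Exon I (variant 1) held 19.1%, 2.30% and 33.7% in ethanol and 16.8%, 13.2% and 4.66% in control, and the groups overlapped for all 3 of these exons.

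Exon IV, whose window is shown above with its TGACG match, had 29, 11 and 18 reads in ethanol against 120, 14 and 0 reads in control. Its highest count lay in control 1 and its lowest in control 3, so 1 control library carries the higher control total. Exon IXa (variant 11) took 186 reads, or 44.5% of Bdnf, in control 2, but 7 to 10 reads in ethanol and 4 and 9 reads in the other control libraries. Exon VIII had 28 reads in ethanol 2, 0 in ethanol 1 and ethanol 3, and at most 2 in a control library. Exon III had 19 reads in ethanol 1, 0 in the other ethanol libraries, and at most 2 in a control library. Exon V had 2 reads in control 1 and 0 elsewhere, and the exon VII rows had 0 reads in all libraries, which allows up to 0.082 CPM in the shallowest one, for counting error only.

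Of the 12 Bdnf rows 5 passed the filter on low counts, namely variants 1, 2, 3, 4 and 5. In the test of all 22527 transcript rows kept, where 0% passed an adjusted p of 0.05, none of the 5 passed. Their log2 fold changes ran from -1.01 (SE 1.54) for variant 3 to 1.501 (SE 1.86) for variant 5, so the error of each was larger than its difference.

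**Figure D3:**
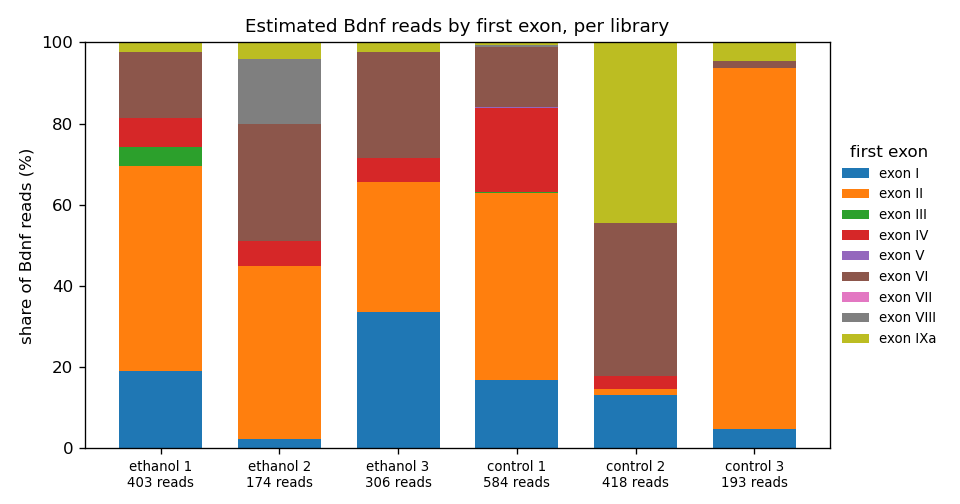
Share of the estimated Bdnf reads (y axis, percent) assigned to each first exon, in the ethanol libraries (left) and the control libraries (right), with the number of Bdnf reads under each bar. Control 2 holds 44.5% on exon IXa and control 3 holds 89.1% on exon II, while no ethanol library exceeds 50.4% on any exon.

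Ntf3 (chr6:126101412-126166744), encoding neurotrophin-3, was near the lower limit of the table. It had 40, 28 and 49 reads in ethanol, or 0.64, 0.68 and 1.31 CPM, against 66, 8 and 28 reads in control, or 1.15, 0.21 and 0.77 CPM. Control 2 was lowest and the groups overlapped. The log2 fold change of 0.29 (SE 0.65, 95% interval -1.16 to 1.75, adjusted p = 0.89 by edgeR) turned to -0.11 without ethanol 3 and to -0.14 without control 2. Each library had most of its Ntf3 reads on 1 of the 3 rows, variant 2 in ethanol 1, ethanol 3 and control 1, variant 3 in ethanol 2, and variant 1 in control 2 and control 3.

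Gdnf (chr15:7810048-7837580), the ligand of GFRα1 and RET, had 2.18, 2.61 and 2.36 CPM in the ethanol libraries, against 1.72, 1.77 and 1.78 CPM in the control libraries. All 3 ethanol libraries lay above the controls, which differed little among themselves. The counts behind these levels were 137, 107 and 88 reads in ethanol and 99, 68 and 65 in control. Its log2 fold change was 0.44 (SE 0.29, 95% interval -0.22 to 1.10, adjusted p = 0.59 by edgeR), and it stayed between 0.36 and 0.50 in the fits that left out 1 library. Its reads fell on variant 1 in ethanol 1, ethanol 2, control 2 and control 3. In ethanol 3 and control 1, 83.0% and 89.9% of them fell on variant 4, and variants 2 and 3 had 0 reads. Interneuron markers summed to 549 to 945 CPM in ethanol and 618 to 932 CPM in control, overlapping widely. Sst was the largest part, at 241 to 562 CPM in ethanol and 303 to 429 CPM in control. Pvalb itself stood at 121, 237 and 123 CPM in ethanol and 118, 174 and 332 CPM in control, with a lower mean in ethanol. The part of these cells in the Gdnf values was not tested.

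Ntrk2 (chr13:58806569-59133970), encoding TrkB, stood at 761, 468 and 642 CPM in ethanol 1, 2 and 3, against 418, 468 and 394 CPM in control 1, 2 and 3. Ethanol 1 and ethanol 3 lay above all controls, while ethanol 2 was level with control 2, so the groups touched. The log2 fold change of 0.55 (SE 0.20, 95% interval 0.11 to 0.99) had an unadjusted p of 0.0199 and an adjusted p of 0.44 by edgeR's quasi-likelihood test. Without ethanol 2 it was 0.70 with an adjusted p of 0.052, and without ethanol 1 it was 0.38, the range of adjusted p over all 12 alternatives being 0.052 to 0.93.

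Truncated TrkB was the larger part of Ntrk2 in every library. Variant 2, without the kinase domain, had 52.2, 37.3 and 50.0 FPKM in ethanol, against 32.9, 39.96 and 33.2 FPKM in control. The rows with the kinase domain summed to 24.0, 12.3 and 20.9 FPKM in ethanol, against 14.4, 14.1 and 11.5 FPKM in control. In both classes ethanol 1 and ethanol 3 were highest and ethanol 2 lay within the controls. Per length, the truncated share was 68.5%, 75.3% and 70.5% in ethanol and 69.6%, 73.9% and 74.3% in control. The means of 71.4% ± 3.48 in ethanol and 72.6% ± 2.64 in control (SD, n = 3 each) differed by -1.17 percentage points (two-sided exact permutation test p = 0.80, where 0.10 is the smallest p that 3 against 3 allows). Without ethanol 1 this difference was 0.29 points. In transcript CPM, variant 2 lay higher in all 3 ethanol libraries than in any control, as did 8.94% of all transcript rows. The step was narrow, from 322 CPM in control 2 to 330 CPM in ethanol 2, and in FPKM the groups overlapped. The unadjusted p under 0.05 of variant 2 was shared by 6.55% of all transcript rows. In the test of transcript rows the log2 fold changes were 0.52 (SE 0.18, unadjusted p = 0.0266, adjusted p = 0.75) for variant 2 and 0.54 (SE 0.32, adjusted p = 0.77) for variant 1 by edgeR. Variant 3, a minor row that also encodes the kinase domain, had 1574, 1111 and 590 reads in ethanol and 788, 0 and 122 reads in control. Scaled, these were 25.4, 26.9 and 16.0 CPM in ethanol, all above the 13.7, 0 and 3.32 CPM in control, with a log2 fold change of 2.00 (SE 1.71, adjusted p = 0.84 by edgeR).

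Summed astrocyte markers put the 6 libraries in the same order as Ntrk2. The 8 genes reached 2853, 2254 and 2651 CPM in ethanol and 2046, 2279 and 1909 CPM in control, with 7 of 8 higher on average in ethanol and none at 0. Slc1a3, the astrocytic glutamate transporter, stood at 526, 392 and 531 CPM in ethanol and 306, 313 and 255 CPM in control. Its ethanol libraries all lay above its controls, as in 9.35% of all genes. This held for Aldh1l1, Gjb6 and Mlc1 too, while the groups overlapped for Slc1a2, Gja1, Gfap and Aqp4. Aqp4, an astrocytic water channel, was the 1 gene with a lower mean in ethanol, at 57.1 to 101 CPM in ethanol and 87.1 to 133 CPM in control. Ethanol 1 and ethanol 3 were also the highest libraries for the summed septal markers (343 and 292 CPM) and oligodendrocyte precursor markers (160 and 141 CPM). In those lists the remaining libraries stood in another order than in Ntrk2. The part of astrocyte RNA, or of either other list, in the Ntrk2 values was not tested.

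**Figure D4:**
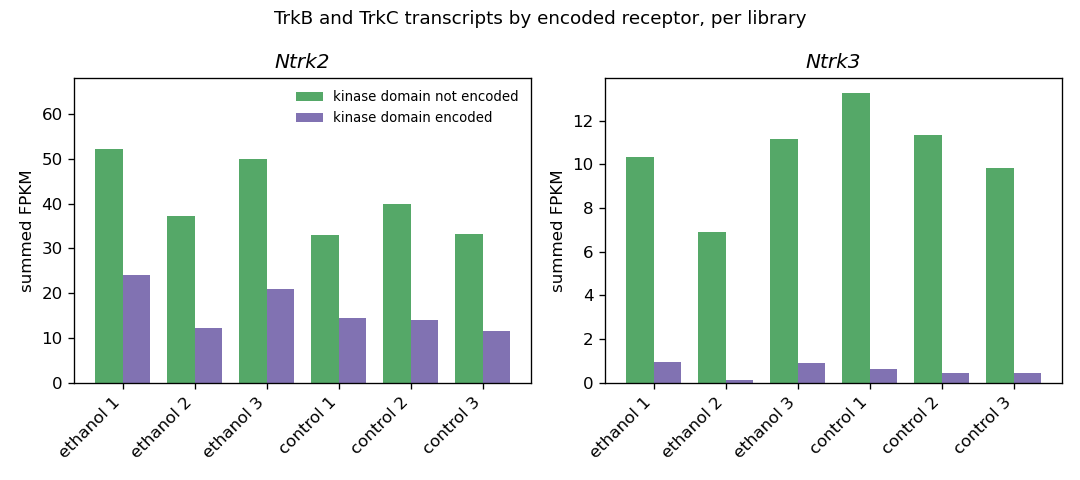
Summed FPKM (y axis, starting at 0) of Ntrk2 (left) and Ntrk3 (right) rows without (green) and with (purple) a coding sequence for the kinase domain, in the ethanol libraries and then the control libraries. The truncated class is the taller bar in all 6 libraries for both genes, at 32.9 to 52.2 FPKM for Ntrk2.

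Ntrk3 (chr7:78192114-78577838), encoding TrkC, had 55.9, 34.0 and 54.8 CPM in ethanol, against 61.7, 52.0 and 46.0 CPM in control. Ethanol 2 lay below all other libraries and the groups otherwise overlapped. Fitted over all libraries, the log2 fold change was -0.14 (SE 0.22, 95% interval -0.64 to 0.35, adjusted p = 0.84 by edgeR) and 0.044 without ethanol 2. The truncated row held 91.7%, 98.1% and 92.4% of Ntrk3 per length in ethanol and 95.5%, 96.3% and 95.8% in control (two-sided exact permutation test p = 0.40). The row with the kinase domain had 230, 21 and 123 reads in ethanol and 125, 58 and 56 reads in control. That row is 2978 bases long in the deposited table and 19703 bases in GENCODE. Reads from the bases that the deposited row lacks could not be counted for it, so its share of reads may be too low. The share per length divides by the deposited length, and whether it is off was not tested.

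Ngfr (chr11:95568821-95587698), encoding p75NTR, varied widely within both groups. It stood at 24.4, 30.6 and 16.1 CPM in ethanol, against 8.78, 27.2 and 19.2 CPM in control. Ethanol 2 was highest and control 1 lowest. The log2 fold change of 0.37 (SE 0.37, 95% interval -0.47 to 1.21, adjusted p = 0.73 by edgeR) was 0.03 without control 1 and 0.77 without control 2. The 6 markers of cholinergic neurons, which are known to carry p75NTR in the basal forebrain, summed to 53.6, 86.0 and 54.8 CPM in ethanol and 42.2, 57.6 and 53.0 CPM in control. Their sum too was highest in ethanol 2 and lowest in control 1. Slc18a3, Slc5a7 and Gbx1 had the same highest and lowest library as the sum, while Chat, Lhx8 and Isl1 did not. None of the 6 was at 0, and all 6 were higher on average in ethanol. The 5 microglia markers had the same highest and lowest library, at 266, 272 and 217 CPM in ethanol and 193, 235 and 202 CPM in control. The match is thus not particular to the cholinergic list, and the part of either list in the Ngfr values was not tested.

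Gfra1 (chr19:58235581-58455398), the GDNF co-receptor, stood at 102, 74.5 and 81.5 CPM in ethanol, against 71.1, 58.0 and 67.0 CPM in control. All ethanol libraries lay above all controls, by a small step between ethanol 2 and control 1. Gfra1 had a log2 fold change of 0.40 (SE 0.18, 95% interval -0.0031 to 0.80, unadjusted p = 0.051, adjusted p = 0.47 by edgeR). It was 0.26 without ethanol 1 and 0.48 without ethanol 2. The split among rows was not stable, since the non-coding variant 2 took all 2233 reads of control 2, 32 reads of ethanol 3 and 0 in the other libraries. Variant 1 took 73.4% to 89.8% in the 5 libraries other than control 2. The sum over rows does not depend on that split.

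Ret (chr6:118151748-118197744), the receptor tyrosine kinase for GDNF, stood at 105, 33.5 and 59.7 CPM in ethanol, against 61.0, 54.6 and 73.0 CPM in control. The highest and the lowest library of the 6 were both ethanol libraries, ethanol 1 and ethanol 2. The log2 fold change of 0.07 (SE 0.34, 95% interval -0.70 to 0.84, adjusted p = 0.96 by edgeR) turned to -0.43 without ethanol 1, was 0.37 without ethanol 2, and was -0.022 with total counts only. The 5 septal markers summed to 343, 155 and 292 CPM in ethanol and 234, 197 and 223 CPM in control. None was at 0, and their sum shared the highest and the lowest library with Ret. The sum of the 4 oligodendrocyte precursor markers did so too, at 160, 105 and 141 CPM in ethanol and 122, 112 and 114 CPM in control. The match is thus not particular to the septal list, and the part of either list in the Ret values was not tested. Row variant 4 took 72.7% to 80.7% of Ret reads in ethanol and 72.6% to 100% in control, where control 2 had no read on variant 2.

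**Figure D5:**
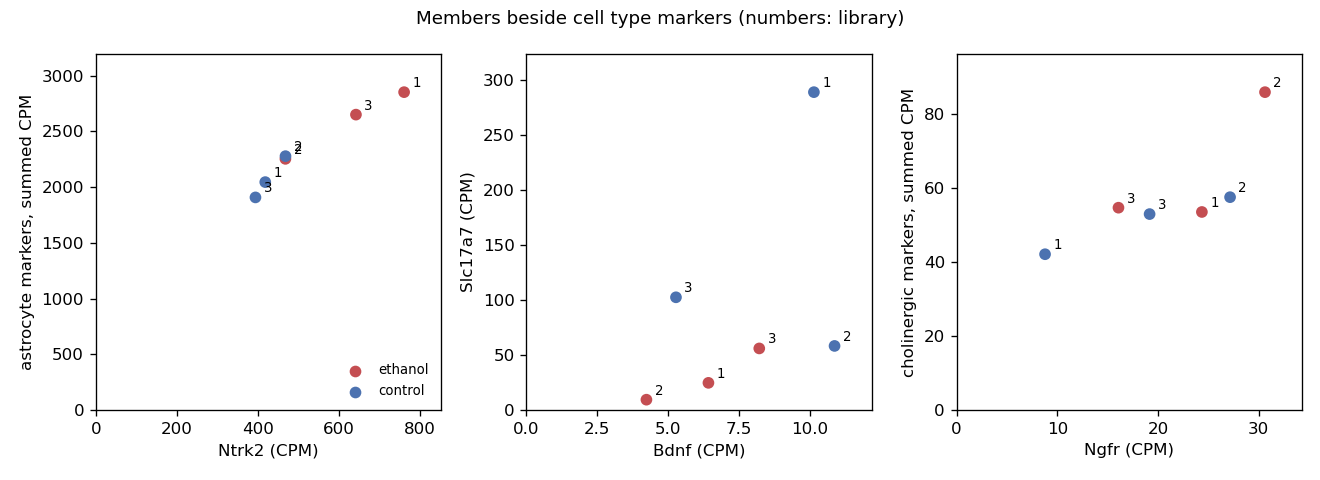
CPM of Ntrk2, Bdnf and Ngfr (x axes) beside the summed CPM of 8 astrocyte markers, the CPM of Slc17a7 and the summed CPM of 6 cholinergic markers (y axes), with ethanol libraries in red, control libraries in blue and the library number at each point. Ethanol 1 and ethanol 3 are highest for both Ntrk2 and the astrocyte markers, control 1 stands out for Slc17a7 at 289 CPM, and ethanol 2 is highest for both Ngfr and the cholinergic markers.

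The other genes of these pathways were described from 4 lists of 67 genes, of which 63 were tested. None of the 63 passed an adjusted p of 0.05 in edgeR, 5 had an unadjusted p under 0.05 (7.94%, against 10.7% of all genes), and the groups did not overlap in 11 (17.5%, against 17.8%). These shares were near or under those of all genes. For the directions given below, 52.7% of all genes tested were higher in ethanol, with a median log2 difference of 0.02. The names below follow the rule of the 2 smallest p-values in each list.

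Among ligands and processing genes, 6 of 10 tested were higher and 4 lower in ethanol (median log2 difference 0.06), and Ntf5 and Pspn did not pass the filter. Pcsk2, a prohormone convertase, stood at 233 ± 38.7 CPM in ethanol and 182 ± 8.82 CPM in control (SD, n = 3 each). Nrtn, encoding the GDNF relative neurturin, stood at 6.57 ± 3.15 CPM in ethanol and 10.8 ± 2.73 CPM in control. Among receptors and co-receptors, 9 of 12 tested were higher and 3 lower, with a median of 0.29, and Gfra3 did not pass the filter. Lrig1, a transmembrane protein known to restrain receptor tyrosine kinases, stood at 108 ± 25.7 CPM in ethanol and 78.2 ± 3.84 CPM in control. Slitrk5, known as a TrkB co-receptor in striatal neurons, stood at 42.9 ± 10.1 CPM in ethanol and 31.8 ± 3.29 CPM in control.

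Among adaptors and signalling genes, 17 of 27 tested were higher and 10 lower, with a median of 0.10, and Bex3 was not matched by that symbol. Dok4, a docking protein known to bind RET, stood at 26.2 ± 2.67 CPM in ethanol and 18.7 ± 2.07 CPM in control, a log2 fold change of 0.49 (SE 0.17, adjusted p = 0.44 by edgeR). Maged1, a binding partner of p75NTR, stood at 1225 ± 143 CPM in ethanol and 952 ± 64.9 CPM in control. Both genes had ethanol above control without overlap. Among regulators and targets of BDNF signalling, 9 of 14 were higher and 5 lower, with a median of 0.23. Npas4, an activity-dependent transcription factor known to act on Bdnf promoters, stood at 9.24 ± 2.50 CPM in ethanol and 16.9 ± 3.80 CPM in control, with all ethanol libraries below all controls, as in 8.41% of all genes. Its log2 fold change was -0.87 (SE 0.25, unadjusted p = 0.0065, adjusted p = 0.42 by edgeR). Mef2c, a neuronal transcription factor, stood at 34.6 ± 9.64 CPM in ethanol and 52.6 ± 11.4 CPM in control.

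The genes whose pattern over the 6 libraries was most like that of a member were found by the root mean square difference of log2 CPM, each gene centred on its own mean. For Ntrk2 these were Lyrm9 (0.039), Fbxw11 (0.046), Cobl (0.048), Arhgap36 (0.048) and Slc39a6 (0.056), where the median over 12647 genes was 0.40. For Gfra1 they were L3mbtl2 (0.039), Nyap1 (0.045), Etv5 (0.048), Cul7 (0.048) and Gtpbp1 (0.051), with a median of 0.33. For Bdnf the nearest genes were farther off, namely Eya1 (0.13), Has3 (0.19), Bach2 (0.19), Gfpt2 (0.21) and Dhdh (0.21), with a median of 0.55. With 6 libraries and this many genes, near patterns are met by search alone, and the values only describe these libraries.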

How the data were processed

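The deposited table covers the whole series and lists RefSeq transcripts, giving the authors' read count and FPKM of each library, as named in the file headers. These deposited values are estimated counts, already whole. Every count checked equalled FPKM times length times 1 scale per library, rounded up, within 0.05 reads. The scale was fitted to the counts, and 20948 to 25386 rows a library were checked, leaving out those with the lowest FPKM. Rounding up adds up to 1 read per row, and reads of isoforms may be divided wrongly. The submitters' processing notes name mm10 and bcl2fastq. Aligner, counter and use of strand were not given in the sources used here. Rows were summed by gene identifier to 24532 genes, merging 10 identifiers that carry 2 symbols. The only term in edgeR 4.0.16 (R 4.3.3) was group, with filterByExpr at minimum count 10, TMM, glmQLFit and glmQLFTest, two-sided, and Benjamini-Hochberg adjustment over all genes kept at a threshold of 0.05. A standard error is the size of the log2 fold change over the square root of F, and 95% intervals use the moderated degrees of freedom. A count of 3 reads is 0.048 to 0.082 CPM after scaling. FPKM served to compare levels between genes and isoforms. Trk rows were classed by the length of their GENCODE M21 protein. Those with the longest protein of the gene, or one near that length, were taken to encode the kinase domain. The domain itself was not searched for. Alternatives were DESeq2 1.42.0, limma-voom 3.58.1, other scalings, no filter, a replicate block and leaving out each library. The edgeR procedure was tested on simulated data. Members, lists, markers and tests were chosen with earlier results of these data known. By rule, all 8 members were named, with the 2 genes of smallest p in each list, the 5 genes most like Bdnf, Ntrk2 and Gfra1 (mean log2 CPM of at least 1, prior count 2, unnamed gene models left out), and Bdnf and Ntrk2 rows. Single marker genes were picked from their lists after their values were seen. No 2 libraries were alike within sampling noise (chi-square per degree of freedom at least 33.6). The plots used matplotlib 3.10.9.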

Additional observations from a re-analysis of the deposited data

How the results depend on the processing

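Over 12 alternatives each, none of the 8 members passed an adjusted p of 0.05. Bdnf, Ntrk2, Ngfr, Gdnf and Gfra1 kept their direction in all 12, and Ntf3 did in 10, Ntrk3 in 11 and Ret in 7. Ret was -0.022 with total counts only, -0.062 with limma-voom and -0.074 with the replicate block. In fits without 1 library, log2 fold changes ran from -0.14 to 0.84 for Ntf3, from -0.26 to 0.044 for Ntrk3 and from -0.43 to 0.37 for Ret, and the difference in truncated Ntrk2 share from -3.10 to 0.29 points. DESeq2 called 54 genes higher and 100 lower, and 299 transcript rows higher and 181 lower, with no member gene and no tested member row among them. Without 1 library edgeR called 0 to 201 genes higher and 0 to 10 lower, the most without ethanol 2, and 0 to 1 of the adaptor and signalling genes higher. That gene was Shc3, an adaptor of Trk receptors, with 1.54 and an adjusted p of 0.034 by edgeR without ethanol 2. Without control 1 edgeR called 1 gene higher.

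Single rows reversed too. With limma-voom and with the replicate block, Bdnf variant 1 stood at -0.37 and -0.31, variant 3 at 0.46 and 0.21, and variant 4 at 0.46 and 0.30. Without 1 library, Bdnf variant 1 ran from -0.74 to 0.84, variant 3 from -1.60 to 1.16 and variant 4 from -0.92 to 0.88. Likewise Ntf3 variant 2 ran from -0.10 to 7.88, Ntrk3 variant 2 from -0.27 to 0.03, Gdnf variant 1 from -0.018 to 0.97, Ret variant 2 from -0.029 to 1.56 and Ret variant 4 from -0.51 to 0.24. The cause was not tested. Same-numbered ethanol and control libraries deviated together by 0.15, -0.03 and -0.02 (correlation over 15774 genes) for numbers 1, 2 and 3, so the numbers were not taken as pairs; the replicate block called 0 genes, as did the fit without it. Ntf3, Gdnf and the Bdnf rows are limited by depth, at 8 to 584 reads a library for the sums.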

Other observations

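Some relatives of the members that the text has not described were measured too. Gfra2, the neurturin co-receptor, stood at 57.9 ± 14.5 CPM in ethanol and 46.3 ± 2.72 CPM in control (SD, n = 3 each), with a log2 difference of 0.32 (SE 0.20). Gfra4 stood at 54.4 ± 11.2 CPM in ethanol and 55.9 ± 2.77 CPM in control. Sort1, encoding sortilin, which binds proneurotrophins, stood at 316 ± 80.4 CPM in ethanol and 297 ± 2.34 CPM in control. In each of these 3 genes the groups overlapped and none passed the test. They were chosen after their values were seen.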
